A study of Xenopus tropicalis with 36 samples.

Results

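The effect of *t*/*t2* morpholinos on the late tailbud transcriptome was set against the effect of the *t*/*t2* knockout, gene by gene, as the difference of the log2 fold changes. A positive difference means that the transcript level was higher in morphants, relative to their control, than in KO embryos relative to theirs, and a negative difference means the opposite. A difference of 1 stands for a ratio that is 2 times as large. All 25774 genes of the count table entered the comparison, with 12 libraries at stage 34, and 17987 genes (69.8%) passed the filter of a mean normalized count above 7 in the control libraries. No gene was chosen by its values for this comparison, and the question behind it is where depletion by morpholino and genetic loss of the same genes changed different transcripts.

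The 12 libraries fall into 4 groups of 3, all of *X. tropicalis* at late tailbud stage 34. The KD experiment used *in vitro* fertilizations of frogs D, E and F, whose embryos stayed uninjected (uninj) or received 18 ng of a mix of 4 morpholinos at the 1-cell stage (*t*/*t2* MO, morphants). The mix joined a translation-blocking and a splice-blocking oligomer for each gene. All 4 carried a sulforhodamine tag, while the standard control morpholino, used below as a further control in the same frogs, was untagged. In the KO experiment, crosses 1, 2 and 9 between frogs heterozygous for both deletions gave wild-type siblings and siblings homozygous for the deletions te1.2D and t2e3.7D (KO). Heterozygous siblings of the same crosses are used below as a further control. Both deletions lie on the same chromosome and come from 1 founder frog, so a single pair of alleles stands for the knockout. Each library pooled sibling embryos of 1 clutch, and the experiments share no parents and no control libraries. Differences between frogs and crosses, or between fertilization *in vitro* and crossing, therefore cannot be told apart from a difference of the effects beyond what the own control of each experiment takes out. Of the 12 libraries, only the morphants came from injected embryos and carried the tag. Injection and tag are thus part of the morphant effect and cannot be told apart from the depletion of *t* and *t2*.

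*Brachyury* genes encode T-box transcription factors that bind DNA and turn on target genes in the posterior mesoderm and notochord. In *Xenopus*, the paralogs *t* and *t2* act together in the outgrowth of the tailbud and in the formation of somites, which give rise to skeletal muscle. Morpholinos are synthetic oligomers that pair with RNA and block translation or splicing, while a frameshift deletion leaves the RNA to be made but ends the reading frame early. The innate immune system senses microbes and foreign nucleic acid by receptors such as Toll-like receptors, whose signals run through NF-kappaB and interferon regulatory factors to cytokines and complement.

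Depth was 32585527 to 52401214 gene fragments per library (median 36295912). The libraries came from whole embryos, and markers of muscle, heart, nervous system, eye, blood, vessels, epidermis, gut and pronephros (the embryonic kidney) were all found in uninjected embryos. In morphants, 33.05% to 33.96% of fragments did not align, against 28.89% to 31.6% in the other 9 of the 12 libraries, and the ribosomal share was 0.218% to 0.3126%, against 0.07316% to 0.198%. Both shares of the morphants stood apart from those of the other 9, and their part in the results was not tested. In 3 libraries of embryos injected with a standard control morpholino (cMO, 18 ng), the unaligned share was 32.39% to 34.01%, which overlapped with morphants, and the ribosomal share 0.09682%, 0.08872% and 0.1029% in frogs D, E and F, which did not.

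The effects differed in 1909 genes at a false discovery rate of 10%, a difference of at least 1.5-fold and a mean count above 7, which is 10.6% of the genes past the filter. Of these, 947 (5.26%) were higher in morphants relative to KO embryos and 962 (5.35%) were lower. The median difference over all genes past the filter was -0.03. The morphant effect alone was called in 3356 genes (18.7%), of which 1683 (9.36%) rose and 1673 (9.3%) fell, and the KO effect in 673 genes (3.74%), of which 225 (1.25%) rose and 448 (2.49%) fell. Differences of at least 4-fold were called in 165 genes with a positive and 63 with a negative sign. In 892 of the 947 and 949 of the 962 genes, the ratios of the 3 frogs to their controls did not overlap with those of the 3 crosses. The genes were called on the same libraries, which favors such a separation, so these counts are not separate support for the calls.

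Most of the differences lay in genes that were called in the morphant effect and not in the KO effect. Among the 947 genes with a positive difference, 739 rose in morphants and were not called in KO embryos (median log2 fold changes 1.14 and -0.04), and 154 were called in neither effect. A further 37 fell in KO embryos and were not called in morphants, 8 rose in morphants and fell in KO embryos, 7 fell in both and 2 rose in both. Of the 962 genes with a negative difference, 616 fell in morphants and were not called in KO embryos (medians -0.95 and 0.04), 258 were called in neither effect, and 68 rose in KO embryos and were not called in morphants. Another 16 fell in both and 4 fell in morphants and rose in KO embryos. Across the 17987 genes, which are not independent replicates, the effects correlated with r = 0.375.

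The count of differences depended on the clutches and on the control. With the clutch as a replicate block, which fits the pairing of siblings, 2864 genes were called, including 1897 of the 1909. Without frog E the count was 904 (466 higher and 438 lower), of which 870 belonged to the 1909, and the higher genes numbered 630 without frog F and 627 without cross 9. Over all 6 omissions of a clutch, 663 of the 1909 were called each time, and the sign turned in 0. The KO effect was called in 375 genes without cross 1, against 673. With cMO embryos in place of uninjected embryos, 1434 genes were called, of which 1068 belonged to the 1909.

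**Figure D1:**
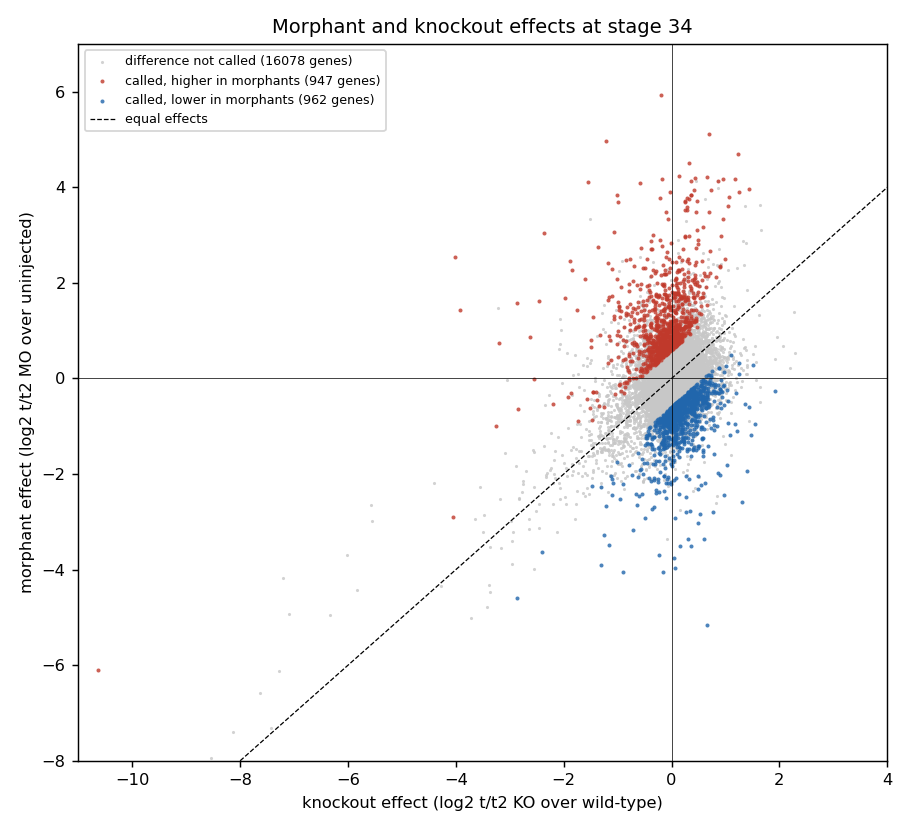
Each point is 1 of 17987 genes past the count filter, with the log2 fold change of KO over wild-type embryos on the x axis, that of morphants over uninjected embryos on the y axis and equal effects on the dashed line. The 947 genes called higher (red) lie mostly above a KO effect near 0 and the 962 called lower (blue) mostly below it. Among genes lowered by both perturbations, many lie near the line, while *t* and *t2* lie above it and *adssl1* below it.

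The targeted genes themselves differed between the perturbations. The gene *t* (Xetro.E00956, genome assembly v7.1, scaffold 5, 72053579 to 72062232, plus strand) had 352, 362 and 384 normalized counts in uninjected embryos of frogs D, E and F, and 183, 166 and 204 in morphants. In crosses 1, 2 and 9 it had 386, 409.7 and 433 normalized counts in wild-type and 38.3, 51 and 38.3 in KO embryos. Both perturbations lowered the transcript in every clutch without overlap, and the KO libraries lay below the morphant libraries. The log2 fold change was -0.99 ± 0.17 in morphants and -3.26 ± 0.19 in KO embryos (± SE, as throughout), a difference of 2.27 ± 0.25 (adjusted p = 3.39e-07).

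The neighboring *t2* (Xetro.E00957, scaffold 5, 72091808 to 72101743, plus strand) had 724, 668 and 831 normalized counts in uninjected embryos and 4.66, 13.6 and 14 in morphants. Wild-type embryos had 670.1, 636 and 857 normalized counts, and KO embryos had 0, 0 and 1 raw counts in the 3 libraries. The transcript was 68.8-fold lower in morphants than in uninjected embryos, and at least 242-fold lower in KO than in wild-type embryos when set against a floor of 3 counts per library. The ratio of these falls was at least 3.52, and the difference passed the test (adjusted p = 0.00122), with a fitted value that is not given because it depends on the prior count. The library kit does not keep the strand, and only read pairs that aligned to 1 gene were counted, so sequence shared by the paralogs is missing from both values.

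Genes of the Brachyury network named by the study, which drive or mark posterior mesoderm, somites and notochord, fell in both experiments, and the test found no difference between the effects at the threshold used. This does not show that the effects were equal, since the test can miss differences of 2-fold. Of 14 network genes past the filter, 12 fell in morphants and 12 in KO embryos (11 in both), with medians of -2.08 and -2.20, and 0 of 14 were called in the difference by edgeR's quasi-likelihood test or by the DESeq2 Wald test, while 2 had an unadjusted p under 0.05, both higher. By the quasi-likelihood test, 4616 of all 17987 genes past the filter had such a p-value in either direction. The differences of the network genes ran from -0.38 (*cav3.2*) to 2.31 (*mespa*), with 8 of 14 above 0. With *mesp2*, *mespa* and *msgn1* set to the bound that 3 counts allow, the medians were -1.66 and -2.003. The study chose this list partly on these samples, so its direction is not independent evidence. With the clutch as a replicate block 1 of the 14 was called higher, as was 1 without cross 1.

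Of the network genes, *cav1*, *tbx6* and *msgn1* were chosen for display after their values had been seen. The caveolin gene *cav1*, a notochord marker, had 3999, 4217 and 5083 normalized counts in uninjected embryos and 815, 1080 and 1035 in morphants, beside 3349, 4743 and 5322 in wild-type and 947, 1135 and 1063 in KO embryos. The ranges of morphants and KO embryos lay far below those of the controls and overlapped each other, and the effects differed by -0.09 ± 0.25 (adjusted p = 0.982). The T-box gene *tbx6*, which is needed for paraxial mesoderm, had 509, 262 and 638 and 45.6, 8.77 and 12.9 normalized counts in uninjected embryos and morphants. It had 212, 197 and 531 and 9.58, 16.7 and 22.8 in wild-type and KO embryos, so that it was low in all 6 perturbed libraries, with a difference of -0.07 ± 0.88. The bHLH gene *msgn1*, another factor of paraxial mesoderm, had 90, 118 and 167 normalized counts in uninjected and 160.4, 108 and 135 in wild-type embryos and at most 3 raw counts in every morphant and KO library.

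The somite and skeletal muscle list also fell in both experiments, with called differences in single genes. Of 75 muscle genes past the filter, 52 fell in morphants and 51 in KO embryos, 44 of them in both, and the medians of the effects were -1.01 and -1.003. The difference was called higher in 5 and lower in 5 (6.67% in each direction, near the 5.26% and 5.35% of all genes), with a median of -0.01. With the clutch as a replicate block 9 were called higher and 9 lower, and with cMO embryos as the control 2 and 6. Leaving out frog E gave 1 higher gene, and leaving out frog F or cross 1 gave 2, and the lower count was 3 without any one frog, 8 without cross 2 and 2 without cross 9. Summed over the list, the level was 1377858 to 1704414 normalized counts in uninjected embryos and 580151 to 713839 in morphants. The sum was 1225433 to 1472717 in wild-type and 569037 to 676998 in KO embryos, so that the perturbed groups overlapped. In bulk samples, fewer cells of a type and less RNA per cell cannot be told apart.

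The muscle gene with the largest called difference was *acta1* (Xetro.E00800), which encodes the actin of skeletal muscle fibers. It had 275, 563 and 592 normalized counts in uninjected embryos and 41, 50.7 and 47.4 in morphants. In wild-type and KO embryos it had 110.1, 131 and 146 and 74.7, 244 and 273. Morphants lay below uninjected embryos without overlap, wild-type and KO libraries overlapped, and the difference was -3.97 ± 0.69 (adjusted p = 0.000372). Every wild-type library lay below every uninjected library. Among the members called higher, *tcap* had the largest difference, 3.48 ± 1.04 (adjusted p = 0.0361), at a mean of 23.5 normalized counts. Its call was lost without frog D or F or cross 1 (range 2.23 to 4.65 over the omissions) and against cMO embryos.

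**Figure D2:**
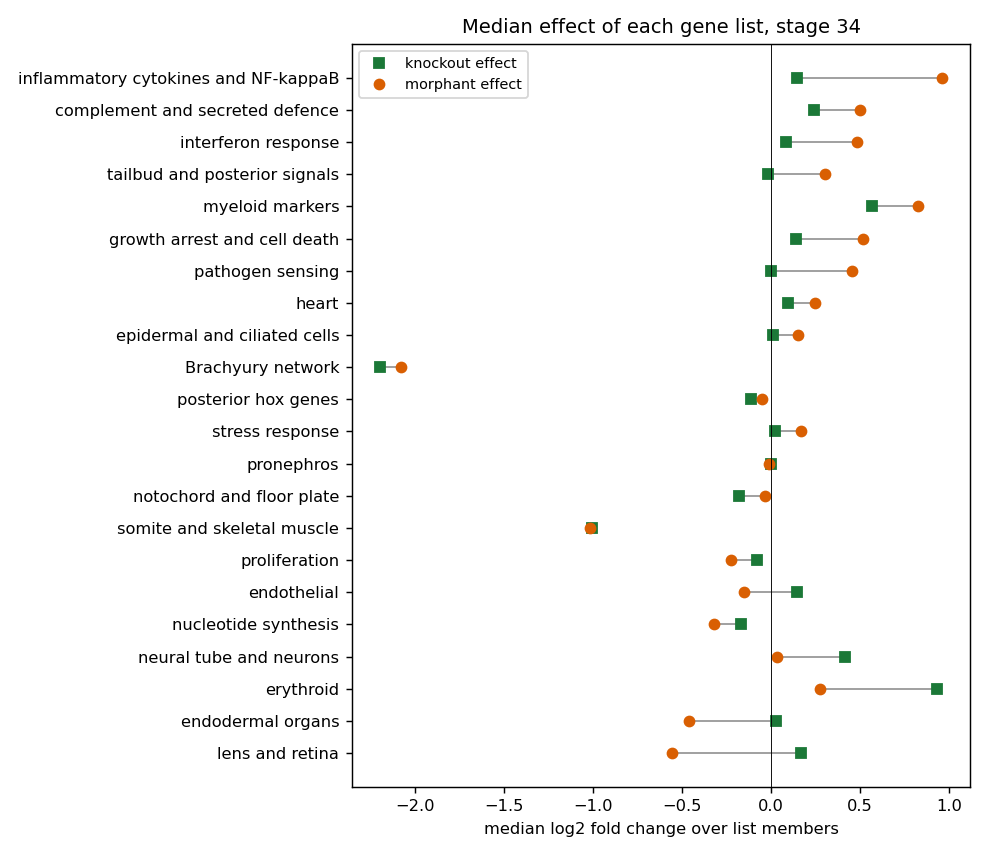
Median log2 fold change over the members of 22 gene lists past the count filter, for the morphant effect (circles) and the KO effect (squares). The Brachyury network and skeletal muscle have nearly equal medians far below 0, while the inflammatory list lies at 0.96 in morphants and 0.15 in KO embryos and the erythroid list at 0.27 and 0.93.

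The 12 largest positive differences among called genes with a mean of at least 50 normalized counts and no overlap between frogs and crosses included *t2*, immune genes, extracellular proteins and genes known from mammals to respond to low oxygen. The value of each clutch is shown in the plot of clutch ratios. The secreted glycoprotein gene *olfm4* (Xetro.H01322) had 489, 2555 and 1169 normalized counts in uninjected embryos and 34170, 9226 and 16625 in morphants. Wild-type embryos had 1654, 607 and 2477 and KO embryos 2250, 1914 and 1973, and these overlapped, whereas all morphants lay above all uninjected embryos. The difference was 3.46 ± 0.65 (adjusted p = 0.000915).

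The gene *adc* (Xetro.B00272) had 1400, 1729 and 1334 normalized counts in uninjected embryos and 4313, 35748 and 20833 in morphants, with frog D lowest among the latter. It had 2461, 1197 and 4413 in wild-type and 2544, 1221 and 3169 in KO embryos, which overlapped, and the difference was 3.99 ± 0.77 (adjusted p = 0.00116). The receptor gene *eda2r* (Xetro.H00526), whose product binds ectodysplasin A2, had 220.3, 117 and 164 normalized counts in uninjected embryos and 3035, 1801 and 2947 in morphants. Wild-type embryos had 1123, 194 and 1530 and KO embryos 1516, 963 and 1354, so that the genotypes overlapped. The wild-type library of cross 2 lay within the range of uninjected embryos, and those of crosses 1 and 9 lay above it. The log2 ratio of KO to wild-type embryos was 0.432, 2.31 and -0.176 in crosses 1, 2 and 9. That of morphants to uninjected embryos was 3.781, 3.936 and 4.161 in frogs D, E and F. Morphants were above uninjected embryos in every clutch, and the difference was 3.53 ± 0.83 (adjusted p = 0.00681).

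A further 5 of the 12 passed the test with all clutches but not without some of them. The ankyrin repeat gene *ankrd37*, raised by hypoxia in mammals, had 30, 28.9 and 45.6 normalized counts in uninjected embryos and 99.7, 1232 and 445 in morphants, with frog E far above frog D. Its difference was 4.68 ± 1.52 (adjusted p = 0.0583), and over the omissions it ran from 3.44 to 5.09, with the call lost without frog E or without cross 1, 2 or 9. The prolyl hydroxylase gene *egln3*, another hypoxia-responsive gene of mammals, had 71.2, 90 and 78.7 in uninjected embryos and 212, 856 and 641 in morphants, beside 78.7, 62.4 and 96.3 in wild-type and 77.6, 81.4 and 77.6 in KO embryos. The groups of the KO experiment overlapped, the difference was 2.84 ± 0.93 (adjusted p = 0.0575), and it was not called without frog E or F or cross 1 or 9 (range 2.52 to 3.15).

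The collagenase gene *mmp13* differed by 3.25 ± 0.88 (adjusted p = 0.0199) and the protease gene *tll2* by 4.13 ± 1.05 (adjusted p = 0.0131), and both calls were lost without cross 9, with ranges of 2.503 to 3.55 and 1.42 to 4.68 over the omissions. For *tll2* the wild-type library of cross 9 had 222 normalized counts, against 16.8 and 9.86 in crosses 1 and 2, and the call was also lost with heterozygous in place of wild-type embryos. The avidin gene *avd* differed by 3.75 ± 1.08 (adjusted p = 0.0296), with the call lost without frog E or cross 1 or 9 (range 2.71 to 5.12). The models of *ankrd37*, *tll2* and *avd* overlap a model on the opposite strand, and reads of such pairs cannot be told apart without strand.

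**Figure D3:**
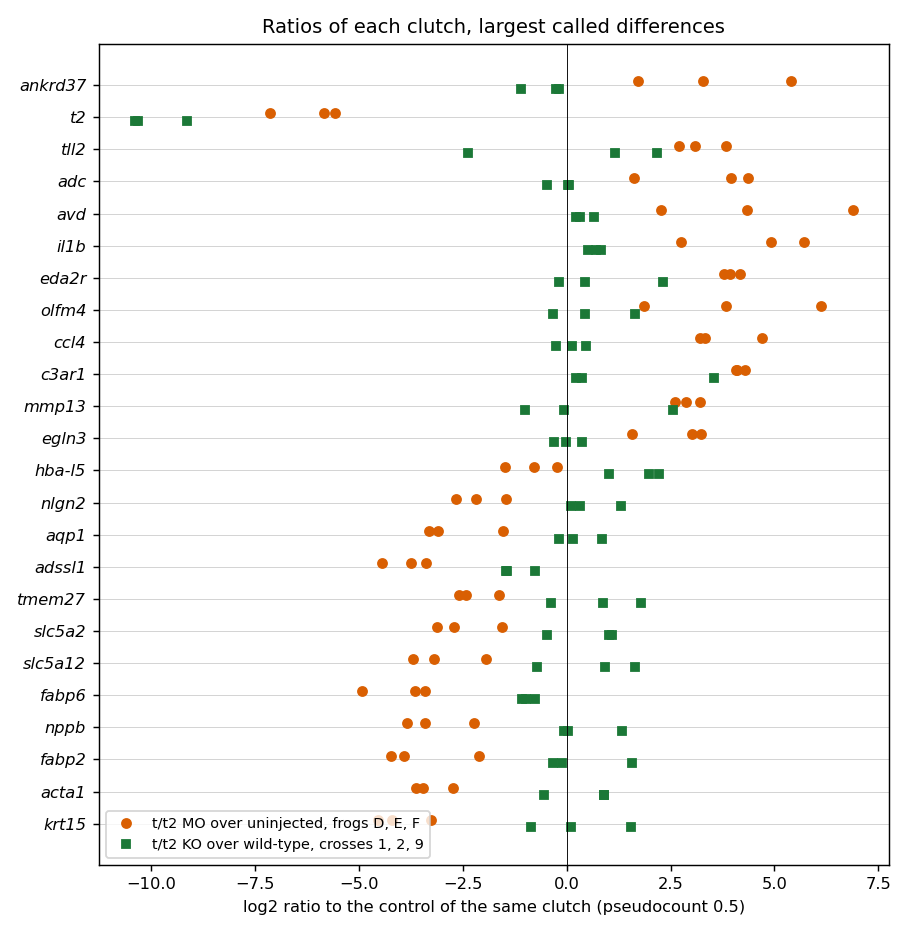
Log2 ratio of each clutch to its own control for the 12 largest positive and 12 largest negative called differences, with circles for frogs D, E and F and squares for crosses 1, 2 and 9. The circles and squares of each gene do not overlap, as the choice of these genes required, and the KO ratios of *t2* rest on 0 to 1 raw counts.

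Genes of inflammatory signaling were higher in morphants relative to KO embryos more often than genes at large. Of 35 genes of inflammatory cytokines and NF-kappaB past the filter, 16 (45.7%) were called higher and 0 lower, against 5.26% and 5.35% of all genes, with a median difference of 0.66 against -0.03. The list rose in 20 and fell in 1 genes in morphants, and 0 rose and 0 fell in KO embryos. Its summed level was 12150 to 14445 normalized counts in uninjected embryos, 26691 to 35394 in morphants, 12754 to 14569 in wild-type and 13953 to 15213 in KO embryos. Morphants were thus apart from all other groups. This list and the others, those of immune and cell death genes included, were chosen with earlier results of these data known. Their shares are therefore not independent evidence of a direction.

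The cytokine gene *il1b* (Xetro.C00451), encoding interleukin 1 beta, had 6.86, 26.2 and 5.7 normalized counts in uninjected embryos and 382, 178 and 187 in morphants. The KO experiment gave 44, 14.2 and 23.2 in wild-type and 63.2, 23.5 and 41.4 in KO embryos. Every morphant library was higher than every uninjected one while the genotypes overlapped, and the difference was 3.56 ± 0.70 (adjusted p = 0.00124). The chemokine gene *ccl4* (Xetro.B00608) had 19.7, 36.7 and 30.8 normalized counts in uninjected embryos and 527, 346 and 314 in morphants. With 15.7, 19.7 and 6.32 in wild-type and 17.2, 27.5 and 5.17 in KO embryos the genotypes overlapped, and the difference was 3.44 ± 0.91 (adjusted p = 0.017). The gene of granulocyte colony-stimulating factor, *csf3*, rose from 6, 36.7 and 11.4 normalized counts in uninjected embryos to 366, 161 and 237 in morphants. It had 15.7, 6.57 and 13.35 in wild-type and 40.2, 16.7 and 18.6 in KO embryos, without overlap. The KO effect of 1.06 ± 0.56 was not called. The difference was 2.73 ± 0.76 (adjusted p = 0.0249), a call that was lost without cross 9 (range 1.93 to 4.07).

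Embryos injected with the standard control morpholino had intermediate levels of these genes. In cMO embryos, *il1b* had 157, 70.8 and 141 normalized counts, *ccl4* had 343, 171 and 197 and *csf3* had 239, 75.6 and 139, above every uninjected library for each gene. Taken against cMO embryos, the differences of these genes were 0.36, 0.41 and -0.31 (adjusted p = 0.89, 0.93 and 0.944), so the sign of *csf3* turned. Of the whole list 3 genes were called higher with cMO as the control, against 16 with uninjected embryos. Counts without single clutches were 11 to 16. Of lower genes there were 2 with the clutch as a replicate block, 1 with cMO as the control and 1 without frog E.

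Complement and other secreted defence proteins followed the same direction. Of 28 such genes past the filter, 7 (25%) were called higher and 0 lower, with a median difference of 0.47, and 13 rose and 0 fell in morphants. The counts were 9 higher and 2 lower with the clutch as a replicate block, and 1 was lower without cross 9. The complement gene *c3* (Xetro.K00722), whose product is cleaved in all routes of complement activation, had 84450, 106662 and 68277 normalized counts in uninjected embryos and 352089, 294715 and 262172 in morphants. It had 93040, 94515 and 152643 in wild-type and 166149, 160216 and 151347 in KO embryos, where the library of cross 9 made the genotypes overlap. All morphants were above all uninjected embryos, and the difference was 1.32 ± 0.24 (adjusted p = 0.000706). The model of *c3* overlaps another on the opposite strand.

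The gene *c9* (Xetro.A00398), a subunit of the membrane attack complex, had 24345, 27564 and 23379 normalized counts in uninjected embryos and 87850, 60218 and 63647 in morphants. In wild-type and KO embryos it had 28706, 26270 and 45290 and 34938, 30800 and 44970, which overlapped, and the difference was 1.35 ± 0.25 (adjusted p = 0.000697). The receptor gene for the C3a fragment, *c3ar1* (Xetro.G00210), had 161, 76.9 and 146 normalized counts in uninjected embryos and 2719, 1519 and 2516 in morphants. Wild-type embryos had 840.0, 115 and 1028 and KO embryos 1076, 1353 and 1199. As for *eda2r*, the wild-type library of cross 2 lay within the range of uninjected embryos, and those of crosses 1 and 9 lay above it. The log2 ratio of KO to wild-type embryos was 0.357, 3.55 and 0.222 in crosses 1, 2 and 9. That of morphants to uninjected embryos was 4.072, 4.295 and 4.103 in frogs D, E and F. Both perturbed groups lay above their controls without overlap, only the morphant effect was called, and the difference was 3.27 ± 0.85 (adjusted p = 0.0149). Transferrin, the iron carrier of plasma encoded by *tf* (Xetro.I00714), had 1989, 3087 and 1415 normalized counts in uninjected embryos and 34282, 7387 and 9660 in morphants, highest in frog D. With 1842, 1501 and 1412 in wild-type and 2182, 2027 and 1409 in KO embryos the genotypes overlapped, and the difference was 2.74 ± 0.47 (adjusted p = 0.000321), with a range of 1.67 (without frog D) to 3.45 over the omissions of a clutch.

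Against cMO embryos, *c9* was still called (0.72, adjusted p = 0.0955), while *c3* (0.499, adjusted p = 0.27), *c3ar1* (0.72, adjusted p = 0.735) and *tf* (0.22, adjusted p = 0.93) were not. In that comparison 3 of the 28 genes were called higher and 1 lower. Further genes whose call was lost with this control were *olfm4* (0.53, adjusted p = 0.763) and *eda2r* (0.78, adjusted p = 0.688), with 15665, 6762 and 9820 and 1137, 1053 and 1189 normalized counts in cMO embryos, as well as *avd* (0.92, adjusted p = 0.731), *tll2* (2.275, adjusted p = 0.2055) and *mmp13* (1.48, adjusted p = 0.3555). For *adc*, cMO embryos had 2526, 2086 and 1987 normalized counts and the difference was 3.43 (adjusted p = 0.00638).

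Interferon and pathogen sensing genes showed smaller shares. Of 34 interferon response genes past the filter, 6 (17.6%) were called higher and 0 lower, with a median of 0.37. The count was 2 without frog D and 2 without cross 9, 3 without frog E or F, and 1 against cMO embryos. The transcription factor gene *irf9* (Xetro.A01559), part of the complex that reads interferon signals, had 154, 193 and 172 normalized counts in uninjected embryos and 486, 596 and 556 in morphants. It had 272, 158 and 229.8 and 260.4, 226 and 241 in wild-type and KO embryos, which overlapped, and the difference of 1.52 ± 0.26 (adjusted p = 0.000247) was called without each clutch in turn and against cMO embryos (1.03, adjusted p = 0.0143). The model of *irf9* overlaps one on the opposite strand. The related *irf1* (Xetro.C01357) had 279, 403 and 252 in uninjected embryos and 789, 982 and 776 in morphants and differed by 1.35 ± 0.32 (adjusted p = 0.0079), which was not called against cMO embryos (0.47, adjusted p = 0.479).

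Of 21 pathogen sensing genes past the filter, 5 (23.8%) were called higher and 1 lower, with a median of 0.32. The count of higher genes was 2 without frog D, 3 without frog E or F and 0 against cMO embryos. The Toll-like receptor gene *tlr5* (Xetro.E01606), whose product binds bacterial flagellin, had 192, 151 and 152 normalized counts in uninjected embryos and 409.9, 412 and 383 in morphants. Wild-type embryos had 204, 162 and 149 and KO embryos 180.0, 188 and 153, which overlapped while the morphants stood apart, and the difference was 1.26 ± 0.25 (adjusted p = 0.00158). Against cMO embryos it was 0.72 (adjusted p = 0.102). The RNA sensor gene *ddx58* was the member called lower, with 402, 218 and 327 in uninjected embryos and 103, 95.5 and 91.5 in morphants, a difference of -1.71 ± 0.58 (adjusted p = 0.0736) that was lost without any single frog or cross 9 (range -1.98 to -1.48), against cMO embryos (-0.68, adjusted p = 0.603) and with heterozygous in place of wild-type embryos.

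Markers of myeloid cells, the granulocytes and macrophages of the blood, rose in sum in both perturbed groups and were called in both directions in the difference. Their summed level was 21794 to 24719 normalized counts in uninjected embryos, 46060 to 51333 in morphants, 17443 to 22204 in wild-type and 24139 to 33642 in KO embryos, with 0 of 34 members at 0 in any group. The level was higher in all perturbed libraries than in the controls of the same experiment. Of 33 markers past the filter, 18 rose in morphants and 1 in KO embryos, with medians of 0.83 and 0.57, and 6 (18.2%) were called higher and 3 (9.09%) lower in the difference. Without single clutches the counts ran from 3 to 6 higher, lowest without frog E, and from 0 to 2 lower, with 0 without frog D, E or F or cross 1 and 1 without cross 9. With cMO embryos as the control 1 was higher and 1 lower. The part of these cells in the immune differences was not tested.

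The myeloid factor gene *cebpe* (Xetro.A01551), which acts in granulocyte maturation in mammals, had 49.7, 38.5 and 46.8 normalized counts in uninjected embryos and 159, 143 and 159 in morphants. It had 40.9, 47.1 and 46.4 in wild-type and 45, 40.2 and 36.2 in KO embryos. Every morphant library lay above every library of the other groups, and the difference was 1.92 ± 0.34 (adjusted p = 0.000383). The integrin gene *itgam*, a defining marker of these cells, was near the floor with 0 to 26.8 normalized counts over the 12 libraries, and its call of a lower level was lost without frog D, E or F or cross 1 or 9 and against cMO embryos.

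**Figure D4:**
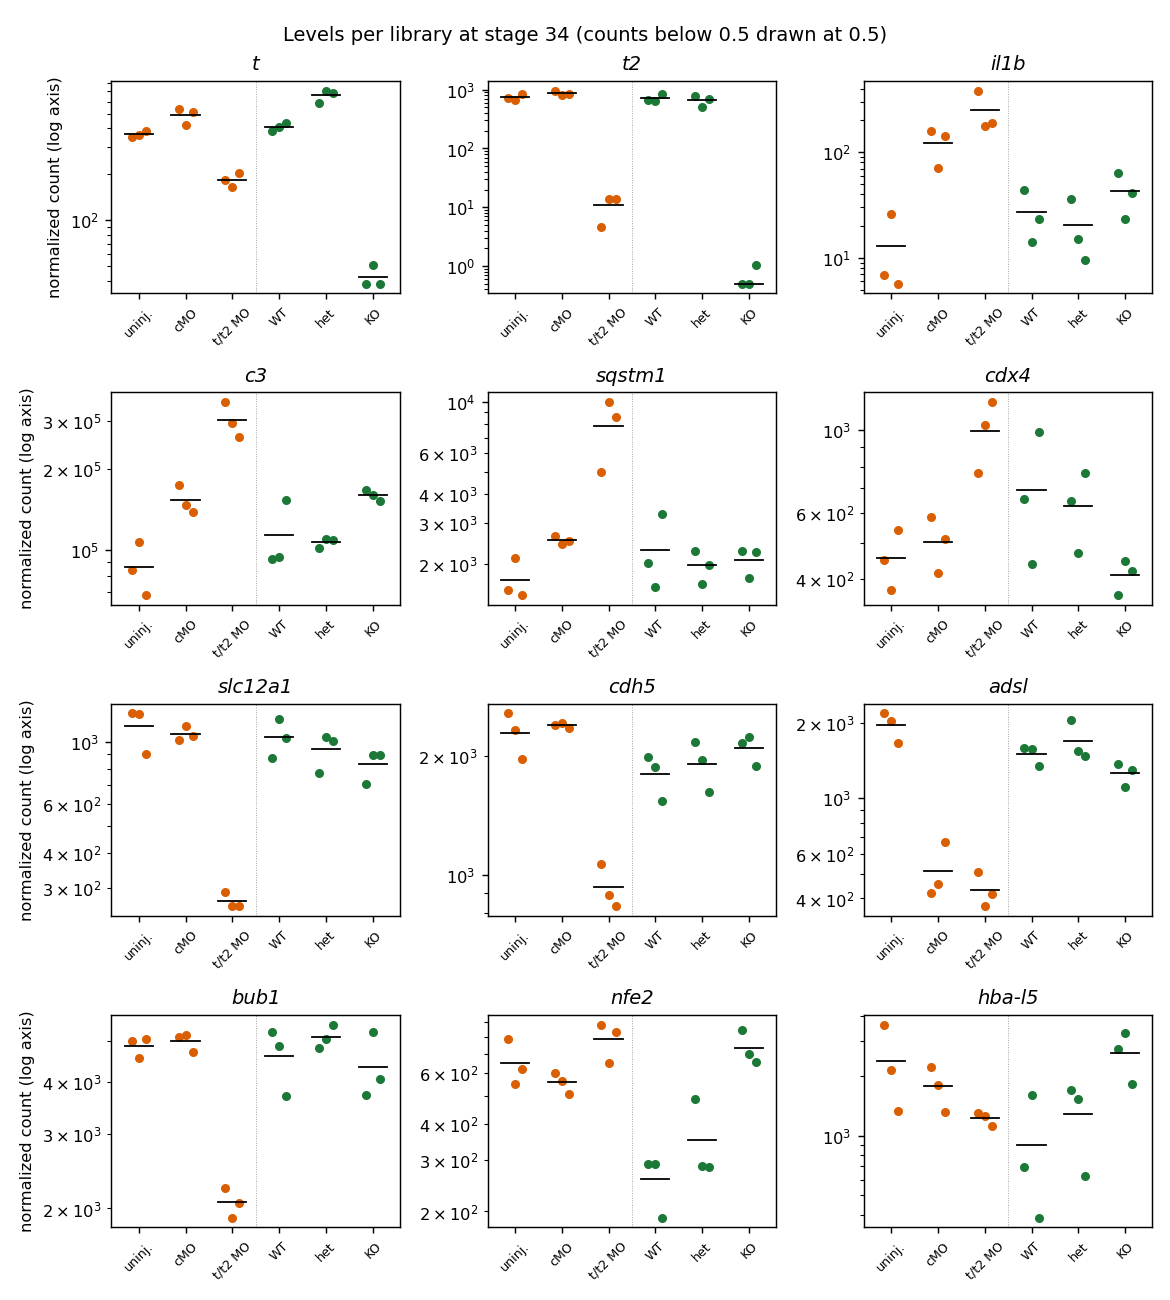
Normalized counts of 12 genes in every stage 34 library on log axes, with 3 libraries (points) and their mean (bar) for uninjected, cMO and *t*/*t2* MO embryos (orange) and for wild-type, heterozygous and KO embryos (green). The cMO embryos lie between uninjected embryos and morphants for *il1b* and *c3*, beside the morphants for *adsl*, and beside uninjected embryos for *slc12a1*, *cdh5* and *bub1*.

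A list of growth arrest and cell death genes was called higher in 14 of 39 members (35.9%) and lower in 2, with a median of 0.35, and 17 rose in morphants against 0 in KO embryos. The count of higher members was 10 to 14 without single clutches and 4 against cMO embryos, and 1 was lower without frog E or F or cross 9. The sestrin gene *sesn1* (Xetro.E00657), which is induced by stress, had 2020, 1927 and 2148 normalized counts in uninjected embryos and 5662, 5445 and 7267 in morphants. It had 3113, 1927 and 1756 in wild-type and 2199, 1674 and 1707 in KO embryos, which overlapped, and the difference was 1.88 ± 0.30 (adjusted p = 0.000112). The initiator caspase gene *casp10* (Xetro.I00540) had 619.8, 564 and 542 normalized counts in uninjected embryos and 1899, 1462 and 1943 in morphants, beside 542, 512 and 1013 and 679.8, 725 and 855 in wild-type and KO embryos. Its difference was 1.495 ± 0.27 (adjusted p = 0.000512), and against cMO embryos 0.63 (adjusted p = 0.185).

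Among 35 stress response genes, 5 (14.3%) were called higher and 2 lower, with 2 higher without cross 9, 3 without frog E or F and 3 against cMO embryos, and with 4 lower without frog D and 1 without frog E or cross 1 or 2. The autophagy receptor gene *sqstm1* (Xetro.C00994) had 1547, 2136 and 1476 normalized counts in uninjected embryos and 4979, 9983 and 8596 in morphants. Wild-type embryos had 2030, 1603 and 3306 and KO embryos 2281, 1743 and 2250, which overlapped, and the difference was 2.34 ± 0.29 (adjusted p = 1.78e-06). The stress-induced transcription factor gene *atf3* (Xetro.E01541) had 376, 359 and 327 in uninjected embryos, 940.0, 1281 and 1138 in morphants, 607, 317 and 387 in wild-type and 453, 357 and 420.0 in KO embryos, a difference of 1.75 ± 0.27 (adjusted p = 6.86e-05). In contrast, *shmt2* (Xetro.K01663), a mitochondrial enzyme of serine and folate metabolism, had 4163, 3837 and 3814 in uninjected embryos and 2080, 1767 and 1767 in morphants and a difference of -1.15 ± 0.15 (adjusted p = 4.24e-06). Morphants did not overlap with uninjected embryos for any of these genes.

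**Figure D5:**
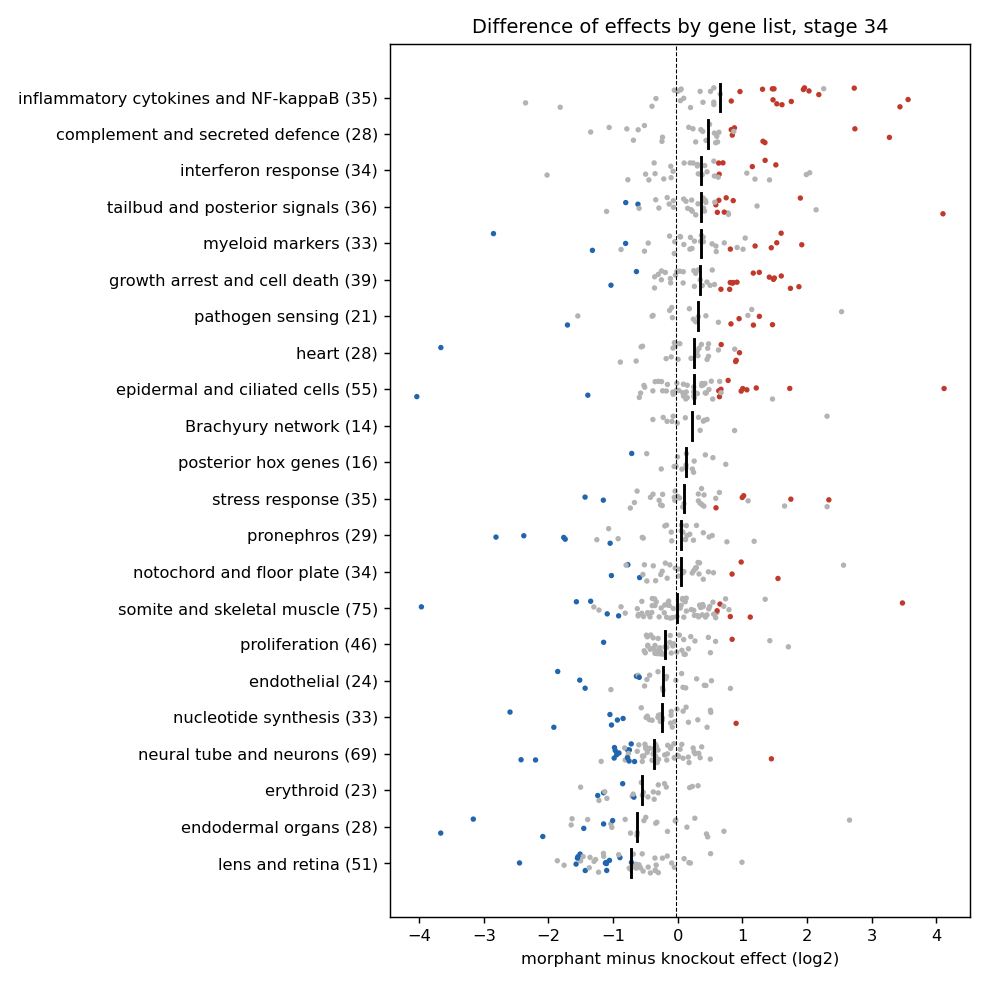
Morphant minus KO effect (log2) of each member of 22 gene lists past the count filter (number in brackets), with called members in red (higher) or blue (lower), a bar at the median of each list and a dashed line at the median of all genes. The inflammatory list has the highest median of the 22, at 0.66, and the lens and retina list the lowest, at -0.73.

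The tailbud list, which holds signals and factors of the growing posterior end, was called higher more often than genes at large. Of 36 tailbud and posterior signal genes past the filter, 8 (22.2%) were called higher and 2 (5.56%) lower, with a median of 0.35. There were 12 higher with the clutch as a replicate block, 5 without frog E, 4 without cross 1 and 4 against cMO embryos. Lower members numbered 0 without frog D, 3 without cross 2 and 1 without each other clutch and against cMO embryos. The caudal homeobox gene *cdx4* (Xetro.H00596), a factor of posterior identity, had 450.1, 374 and 543 normalized counts in uninjected embryos and 769.5, 1033 and 1190 in morphants. It had 653, 440.4 and 989 in wild-type and 363, 446 and 421 in KO embryos. It rose in morphants (1.13 ± 0.21) and fell in KO embryos (-0.77 ± 0.21), although wild-type and KO libraries overlapped through cross 2, and the difference was 1.90 ± 0.30 (adjusted p = 8.78e-05).

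The ligand gene *wnt8a* (Xetro.C01242), a posterior Wnt signal, had 6, 9.62 and 11.4 normalized counts in uninjected embryos and 34.5, 91.6 and 53.9 in morphants. Wild-type embryos had 10.5, 14.2 and 82.2 and KO embryos 7.66, 7.85 and 29, so that both genotypes were highest in cross 9. The difference was 4.10 ± 0.82 (adjusted p = 0.00152), with a KO effect of -1.36 ± 0.57 that was not called. The BMP antagonist gene *chrd* (Xetro.E00181), which is expressed in axial mesoderm, had 187, 198 and 238 normalized counts in uninjected embryos and 288, 338 and 370.5 in morphants. It had 265, 218 and 403 in wild-type and 150.3, 178 and 158 in KO embryos, without overlap in either experiment, and it rose in morphants (0.68 ± 0.17) and fell in KO embryos (-0.87 ± 0.17), a difference of 1.55 ± 0.24 (adjusted p = 7.28e-05). The model of *chrd* overlaps one on the opposite strand. Of 34 notochord and floor plate genes, 3 were called higher and 3 lower (8.82% each), against 5.26% and 5.35% of all genes past the filter. The higher ones include *foxj1*, which is also a member of the epidermal and ciliated cell list. Of 16 posterior *hox* genes 0 were called higher and 1 (6.25%, near the share of all genes) lower. The latter was *hoxd8*, with -0.71 ± 0.25 (adjusted p = 0.0883), which was called without frog F but not without any other clutch nor against cMO embryos. Without frog F 1 notochord gene was lower, and *hox* genes called higher numbered 1 without frog D and 2 without cross 2.

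Among genes with a symbol and a mean of at least 50 normalized counts that were called in both effects with opposite signs, the 4 largest differences were those of *hba-l5*, *otp*, *lgals4* and *cdx4*. The galectin gene *lgals4* (Xetro.H01370) had 249.5, 212 and 222 normalized counts in uninjected embryos, 385, 375 and 526 in morphants, 220.2, 168 and 349.9 in wild-type and 95.8, 111 and 163 in KO embryos. Neither pair overlapped, and the difference was 1.91 ± 0.36 (adjusted p = 0.000924). The homeobox gene *otp* (Xetro.A00270), which acts in hypothalamic neurons, had 869, 1043 and 806 normalized counts in uninjected embryos, 365, 478 and 527 in morphants, 293, 888 and 662 in wild-type and 1122, 1191 and 1004 in KO embryos. It fell in morphants and rose in KO embryos, a difference of -1.84 ± 0.36 (adjusted p = 0.00116).

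The alpha-globin gene *hba-l5* (Xetro.I01067) had 3618, 2138 and 1331 normalized counts in uninjected embryos and 1299, 1249 and 1124 in morphants. It had 693, 1608 and 386 in wild-type and 2727, 3286 and 1820 in KO embryos. Morphants lay just below the lowest uninjected library and KO embryos just above the highest wild-type library, and the difference was -2.499 ± 0.56 (adjusted p = 0.0048). Its model overlaps others on the same strand and belongs to a family of near-identical globin genes, so its counts are uncertain.

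Genes of red blood cells were called more often in the KO effect than in the morphant effect. Of 23 erythroid genes past the filter, 15 rose in KO embryos and 3 in morphants, with medians of 0.93 and 0.27, and 4 (17.4%) were called lower and 0 higher in the difference, with a median of -0.55. The summed level was 63859 to 109917 normalized counts in wild-type and 119112 to 174705 in KO embryos, and 139791 to 178028 in uninjected embryos and 174032 to 213482 in morphants. All wild-type libraries were thus below all other libraries. With the clutch as a replicate block 10 were called lower, and without single clutches 2 to 7, lowest without frog D or E or cross 1 and highest without cross 2. The count was 2 with heterozygous in place of wild-type embryos and 6 against cMO embryos.

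The erythroid transcription factor gene *nfe2* (Xetro.B01495) had 292, 292 and 190.4 normalized counts in wild-type and 847, 698 and 655 in KO embryos. In uninjected embryos and morphants it had 784, 548 and 620.4 and 880.4, 652 and 830.3, which overlapped, whereas the genotypes did not. The KO effect was 1.51 ± 0.20, the morphant effect 0.27 ± 0.19 and the difference -1.24 ± 0.27 (adjusted p = 0.00335). The anion exchanger gene of red cells, *slc4a1* (Xetro.J00457), had 1467, 2890 and 1380 in wild-type and 4738, 5069 and 3756 in KO embryos, and 5627, 4226 and 4264 and 4437, 4838 and 5809 in uninjected embryos and morphants, a difference of -1.15 ± 0.24 (adjusted p = 0.00268).

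Among genes with a symbol and a mean of at least 50 normalized counts that were called in the KO effect and not in the morphant effect, the 4 largest called differences included *slc39a8* and *phkg1*. The zinc importer gene *slc39a8* (Xetro.A02614), whose model overlaps one on the opposite strand, had 688, 801 and 474 normalized counts in wild-type and 1528, 1308 and 1005 in KO embryos, and 1600, 1405 and 1328 and 1048, 744 and 1172 in uninjected embryos and morphants. The genotypes did not overlap, morphants lay below uninjected embryos in an effect that was not called, the KO effect was 0.97 ± 0.21 and the difference -1.52 ± 0.29 (adjusted p = 0.00104). Every wild-type library lay below every uninjected library, and KO embryos overlapped with uninjected embryos. The gene of a catalytic subunit of phosphorylase kinase, *phkg1* (Xetro.B00618), had 656, 488 and 692 in wild-type and 249.9, 244 and 319 in KO embryos without overlap, and 481, 488 and 404 and 576, 694 and 445 in uninjected embryos and morphants with overlap. Its difference was 1.499 ± 0.27 (adjusted p = 0.000642). The calls of the other 2, *mxra8* (1.68 ± 0.60) and *rln3* (-1.504 ± 0.502), were lost without frog D, E or F or cross 2 or 9 for *mxra8* and without frog D or E or cross 1 for *rln3* (ranges 1.33 to 1.99 and -1.77 to -1.25), and for both against cMO embryos (1.603 and -1.24, adjusted p = 0.123 and 0.168). The call of *mxra8* was also lost with heterozygous in place of wild-type embryos.

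The 12 largest negative differences, chosen by the same rule as the positive ones, included *fabp2*, *fabp6*, *slc5a2*, *slc5a12*, *tmem27* and *aqp1*, genes of gut and kidney epithelia. Of 28 genes of endodermal organs past the filter, 6 (21.4%) were called lower and 0 higher, with a median of -0.63, and of 29 pronephros genes 5 (17.2%) lower and 0 higher, with a median of 0.05. The pronephros median was thus near that of all genes although 5 members had differences of -2.81 to -1.05, of which *lhx1* was not called in morphants and rose in KO embryos. Without frog E 3 genes of each list were called lower, and with the clutch as a replicate block 10 and 6 lower and 2 and 2 higher. Without cross 1 or 2, 1 pronephros gene was higher. The summed level of the pronephros list was 82840 to 95335 normalized counts in uninjected embryos and 97921 to 129117 in morphants. That of endodermal organs was 186111 to 269098 and 169748 to 185125. Morphants were thus above uninjected embryos for the former sum and below them for the latter, without overlap in either. In wild-type and KO embryos the pronephros sum was 68994 to 122342 and 101140 to 125951. The endodermal sum was 152648 to 276877 and 168767 to 266328. The genotypes overlapped in both sums, and the morphant range overlapped with those of both genotypes. The most abundant members weigh most in such sums.

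The intestinal fatty acid binding protein gene *fabp2* (Xetro.A02679) had 820.4, 684 and 292 normalized counts in uninjected embryos and 54, 36.1 and 67.8 in morphants. It had 91.2, 422 and 211 in wild-type and 272, 336 and 196 in KO embryos. All morphants were below all uninjected embryos while the genotypes overlapped, and the difference was -3.67 ± 0.69 (adjusted p = 0.000832). The related *fabp6* (Xetro.C00929), which binds bile acids in the gut, had 127, 103 and 73 normalized counts in uninjected embryos, 3.73, 7.8 and 6.46 in morphants, 121, 118 and 61.1 in wild-type and 61.3, 69.6 and 29 in KO embryos. Its difference was -3.16 ± 0.62 (adjusted p = 0.00131). The model of *fabp2* overlaps one on the opposite strand.

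The sodium, potassium and chloride cotransporter gene of the kidney, *slc12a1* (Xetro.C00583), had 1260, 1256 and 901 normalized counts in uninjected embryos and 289.7, 258 and 259.6 in morphants. Wild-type embryos had 870.4, 1208 and 1029 and KO embryos 703, 895 and 898, and cMO embryos had 1009, 1134 and 1048. The morphants were the lowest of all groups, and the difference was -1.76 ± 0.24 (adjusted p = 9.91e-06). The glucose cotransporter gene *slc5a2* (Xetro.I01620), whose model overlaps one on the opposite strand, had 212, 258 and 150.5 in uninjected embryos, 71.7, 29.2 and 22.6 in morphants, 78.7, 183 and 103 in wild-type and 159.9, 131 and 222 in KO embryos. It differed by -2.81 ± 0.58 (adjusted p = 0.00219). The gene of collectrin, *tmem27* (Xetro.B00499), a partner of amino acid transporters in the mammalian kidney, had 141, 180.1 and 150.5, 45.6, 33.1 and 24.8, 70.3, 175 and 55.5 and 129.3, 135 and 194 in the same order of groups, a difference of -2.80 ± 0.57 (adjusted p = 0.00171). Morphants did not overlap with uninjected embryos for any of these genes, and the genotypes overlapped for each.

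Further kidney genes were called with all clutches and lost without frog E. These were the lactate cotransporter gene *slc5a12* (-3.11 ± 0.74, adjusted p = 0.00762, range -3.93 to -2.63 over the omissions) and the chloride cotransporter gene *slc12a3* (-1.74 ± 0.53, adjusted p = 0.0408, range -1.85 to -1.65). The water channel gene *aqp1* (-2.56 ± 0.77, adjusted p = 0.0378, range -3.37 to -2.22) was lost without frog E or F or with heterozygous in place of wild-type embryos.

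Vessel, eye and neural genes also leaned to lower levels in morphants relative to KO embryos. Of 24 endothelial genes past the filter 5 (20.8%) were called lower and 0 higher, with a median of -0.23, and the count was 2 without frog D or E or cross 9. Without cross 1, 1 gene was higher. The vascular cadherin gene *cdh5* (Xetro.D00727) had 2568, 2330 and 1967 normalized counts in uninjected embryos and 1066, 891 and 832 in morphants. It had 1988, 1882 and 1539 in wild-type and 2154, 2234 and 1893 in KO embryos, which overlapped, and the difference was -1.52 ± 0.35 (adjusted p = 0.00554). The hyaluronan receptor gene of lymphatic vessels, *lyve1* (Xetro.D00096), had 369, 354 and 252 in uninjected embryos and 149, 99.4 and 111 in morphants, without overlap, and 259, 356 and 164 and 293, 469.9 and 273 in wild-type and KO embryos, with overlap, a difference of -1.86 ± 0.44 (adjusted p = 0.00701). Against cMO embryos the differences were -1.58 and -1.91 (adjusted p = 0.00582 and 0.00819).

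Of 51 lens and retina genes past the filter, 13 (25.5%) were called lower and 0 higher, with a median of -0.73, and 20 fell in morphants while 0 fell in KO embryos. The count was 23 with the clutch as a replicate block, 1 without cross 9, 3 without frog E, 4 without frog D, 5 without cross 1 and 1 against cMO embryos. The rod opsin gene *rho* had 23.1, 69.1 and 16 normalized counts in uninjected embryos, 4.66, 4.87 and 2.15 in morphants, 15.7, 86.5 and 34.4 in wild-type and 24.9, 28.4 and 29 in KO embryos. The morphants were lowest in every clutch, and the difference was -2.45 ± 0.82 (adjusted p = 0.0657), not called without any frog or without cross 1 or 9 (range -3.24 to -1.74) nor against cMO embryos (-0.59, adjusted p = 0.828).

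Of 69 neural genes past the filter, 13 (18.8%) were called lower and 1 higher, with a median of -0.37. Their median was 0.03 in morphants and 0.42 in KO embryos, in which 9 rose. The summed level was 101768 to 108896 normalized counts in uninjected embryos, 98254 to 110431 in morphants, 98762 to 115238 in wild-type and 135189 to 144127 in KO embryos, so that KO embryos were above all other groups. The count of lower genes was 20 with the clutch as a replicate block, 2 without frog E, 7 without frog D and 8 without cross 1, and the higher gene was lost without frog E or F or cross 1 or 9. The synaptic adhesion gene *nlgn2* (Xetro.K03723), outside the list, had 193, 237 and 163 normalized counts in uninjected embryos, 69.9, 37 and 35.5 in morphants, 115, 224 and 278 in wild-type and 286, 282 and 300.0 in KO embryos. Morphants were below uninjected embryos and KO embryos just above wild-type embryos, a difference of -2.54 ± 0.51 (adjusted p = 0.00147).

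Of 28 heart genes past the filter, 4 (14.3%) were called higher and 1 lower, with a median of 0.25, and 7 rose and 4 fell in morphants while 0 rose and 4 fell in KO embryos. The medians of the effects were 0.25 in morphants and 0.095 in KO embryos. The summed level of the list was 205887 to 226298 normalized counts in uninjected embryos and 117226 to 134450 in morphants. It was 212526 to 225737 in wild-type and 105813 to 130742 in KO embryos, lower in both perturbed groups without overlap. The most abundant members weigh most in this sum. The list holds *actc1*, which the study used as a marker of cardiac and skeletal muscle, so the sum is not specific to the heart. The part of skeletal muscle in it was not tested. The factor gene *gata4* (Xetro.K05138) had 1138, 1193 and 1248 normalized counts in uninjected embryos and 2417, 2127 and 2208 in morphants, while wild-type and KO embryos had 1131, 1123 and 1244 and 1161, 1205 and 1183. The genotypes overlapped closely and morphants stood apart, with a difference of 0.90 ± 0.20 (adjusted p = 0.00497). The T-box gene *tbx20* (Xetro.F01042) had 615, 586 and 566 in uninjected embryos and 937, 1160 and 1039 in morphants and differed by 0.96 ± 0.20 (adjusted p = 0.00195). The gene called lower was the natriuretic peptide gene *nppb* (Xetro.G01411), with 126, 108 and 42.2 normalized counts in uninjected embryos, 8.38, 9.74 and 8.62 in morphants, 32.5, 125 and 29.5 in wild-type and 33.5, 119.7 and 75.5 in KO embryos, a difference of -3.67 ± 0.80 (adjusted p = 0.00335). The count of higher genes was 6 with the clutch as a replicate block and 2 without frog E or without cross 2, and that of lower genes was 2 with the block, without cross 2 or against cMO embryos.

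Of 55 epidermal and ciliated cell genes past the filter, 10 (18.2%) were called higher and 2 (3.64%) lower, with 6 higher without frog E, 5 higher against cMO embryos, 4 lower with the clutch as a replicate block or without cross 2, and 1 lower without frog E or cross 1. The keratin gene *krt15* (Xetro.J00860), first among the 12 largest negative differences, had 1156, 978 and 829 normalized counts in uninjected embryos and 62.4, 41.9 and 86.2 in morphants. It had 349, 778 and 201 in wild-type and 374, 429.6 and 586 in KO embryos, which overlapped, and 491, 894 and 1251 in cMO embryos, and the difference was -4.04 ± 0.55 (adjusted p = 9.64e-06). The tight junction gene *cldn6.1* (Xetro.I01730) had 400.3, 582 and 344 in uninjected embryos and 1065, 2148 and 1369 in morphants, without overlap, and differed by 1.73 ± 0.36 (adjusted p = 0.00242). The ciliary factor gene *foxj1* (Xetro.J00116) had 502, 532 and 592 in uninjected embryos, 1116, 1099 and 1081 in morphants, 804, 596 and 849.6 in wild-type and 772, 687 and 854 in KO embryos, a difference of 0.98 ± 0.20 (adjusted p = 0.00149). A further keratin gene, *krt17*, was called higher from 0 to 10.9 normalized counts per library, and no fold is given at this depth.

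A part of the nucleotide synthesis list was lower in morphants relative to KO embryos. Of 33 such genes past the filter, 6 (18.2%) were called lower and 1 higher, with a median of -0.24, and without single clutches 5 to 7 were lower, with 3 lower and 4 higher against cMO embryos. The higher gene, *tk2*, was the only one in that direction, and the count was 0 without any one frog or cross 9 and 2 without cross 2. The members called lower act mostly in the making of purines. The adenylosuccinate lyase gene *adsl* (Xetro.D01583) had 2175, 2027 and 1661 normalized counts in uninjected embryos and 509.6, 372 and 418 in morphants. It had 1581, 1575 and 1349 in wild-type and 1364, 1110 and 1296 in KO embryos, which overlapped, and the difference was -1.92 ± 0.22 (adjusted p = 6.8e-07). In cMO embryos it had 420.5, 458 and 669.7, with frogs D and E within the range of the morphants and frog F above it, and the difference against them was 0.0045 (adjusted p = 1).

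The gene of the first enzyme of purine synthesis, *ppat* (Xetro.A03026), had 4798, 5669 and 5849 normalized counts in uninjected embryos, 2319, 3248 and 2771 in morphants, 3794, 4389 and 4036 in wild-type and 4407, 4100 and 4416 in KO embryos. Its difference was -1.05 ± 0.16 (adjusted p = 4.73e-05). The muscle form of adenylosuccinate synthase, *adssl1* (Xetro.H01542), fell in both experiments. It had 908, 1035 and 606 normalized counts in uninjected embryos and 67.1, 46.8 and 57.1 in morphants, and 511, 622 and 238 and 188, 226 and 141 in wild-type and KO embryos. Neither pair overlapped, the effects were -3.90 ± 0.33 and -1.30 ± 0.29, and the difference was -2.60 ± 0.43 (adjusted p = 0.000181).

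Of 46 proliferation genes past the filter, 1 was called higher and 1 lower (2.17% each, below the share of all genes). Their median difference was -0.20, with 14 of 46 above 0. By edgeR's quasi-likelihood test, 10 lower and 5 higher members had an unadjusted p under 0.05. Among all 17987 genes past the filter, 4616 had such a p-value in either direction. The kinase gene of the spindle checkpoint, *bub1* (Xetro.E01463), had 4985, 4546 and 5048 normalized counts in uninjected embryos and 2240, 1902 and 2065 in morphants. It had 5259, 4858 and 3691 in wild-type, 3727, 5240 and 4053 in KO and 5094, 5176 and 4707 in cMO embryos, and the difference was -1.15 ± 0.16 (adjusted p = 1.05e-05). Only the morphants stood apart. The replication licensing gene *cdc6* (Xetro.J00829) had 2401, 2430 and 2922 in uninjected embryos and 4044, 5461 and 5466 in morphants and differed by 0.84 ± 0.17 (adjusted p = 0.00158), and the counts were 3 higher with the clutch as a replicate block, 2 higher without cross 2 or 9 and 3 lower without cross 1 or 9.

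Genes whose introns the study listed as mis-spliced in *t*/*t2* morphants were compared with all genes. Of 691 listed genes, all past the filter, 133 (19.2%) were called lower and 7 (1.01%) higher, against 5.35% and 5.26% of all genes, with a median of -0.25 against -0.03. In morphants 154 fell and 8 rose, and in KO embryos 21 fell and 1 rose. The study chose the list on these samples, so it is not independent evidence of a direction. The count of lower genes was 108 to 147 without single clutches and 122 against cMO embryos, and that of higher genes 11 with the clutch as a replicate block, 4 without frog E and 11 without cross 2.

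Biological process terms of the deposited annotation were counted in the same way. Over 39 terms with at least 5 genes past the filter, the share called higher ran from 0% to 15.4% and the share called lower from 0% to 13.8%, and the medians from -0.34 to 0.14. Over all genes past the filter, 5.26% were called higher and 5.35% lower. Of the 175 genes of the inflammatory response term, 27 (15.4%) were called higher and 7 (4%) lower, with 14 higher and 3 lower without frog E and 9 higher and 6 lower against cMO embryos. The immune response term had 17 of 165 genes (10.3%) higher and 3 (1.82%) lower, with a median of 0.08. The innate immune response term had 13 of 141 (9.22%) higher and 6 (4.26%) lower, with a median of 0.05. Against cMO embryos, 6 were higher and 6 lower for the former and 9 higher and 6 lower for the latter. Of the 119 genes of skeletal system development, 17 (14.3%) were higher and 8 (6.72%) lower, and the higher genes numbered 9 without frog E and 9 against cMO embryos. Of the 29 cholesterol biosynthesis genes, 4 (13.8%) were lower, but 1 without frog E. The apoptotic process term had 24 of 291 genes (8.25%) higher and 20 (6.87%) lower, with a median of -0.04, unlike the list of growth arrest and cell death genes. Of the 121 translation genes, 11 (9.09%) were lower and 3 (2.48%) higher, with a median of -0.29, and the lower genes numbered 5 without frog E and 4 against cMO embryos. Of the 170 cell cycle genes, 16 (9.41%) were lower and 5 (2.94%) higher, and of 92 DNA replication genes 9 (9.78%) and 4 (4.35%). The lower genes of these terms numbered 7 and 6 without frog E and 11 and 5 against cMO embryos. Of the 111 muscle contraction genes, 6 (5.41%) were higher and 7 (6.31%) lower, near the shares of all genes. In this term 2 were higher and 3 lower without frog E, and 6 higher and 2 lower against cMO embryos.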

How the data were processed

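Poly(A)+ RNA was sequenced in 36 libraries of pooled sibling *X. tropicalis* embryos, of which the 12 libraries of 4 stage 34 groups are compared here. Raw fragment counts per gene were deposited by the authors, who aligned read pairs with Bowtie2 2.1.0 to revised gene models of *X. tropicalis* and counted pairs that aligned uniquely to 1 gene. The library kit (TruSeq) does not keep the strand. Ribosomal, mitochondrial and unaligned totals, which name no gene, entered neither the library sizes nor the fits, and 0 per-sample columns were unused. Coordinates are those of assembly v7.1 in the deposited annotation.

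The counts were fitted with edgeR 4.0.16 (R 4.3.3) over 36 libraries and 12 group means, after TMM normalization, with the quasi-likelihood test and Benjamini-Hochberg adjustment over 25774 genes with a count. All adjusted p-values are from this test, and normalized counts are counts divided by the scaled library size. The SE was derived from the same test, as the absolute log2 value divided by the square root of its F statistic. The contrast was morphant over uninjected minus KO over wild-type embryos. Calls required an FDR no higher than 10%, a 1.5-fold or larger effect and a mean above 7 normalized counts over uninjected, cMO, wild-type and heterozygous libraries. Ratios within a clutch used a pseudocount of 0.5. The test was first tested on simulated data, with changes set in 200 genes of at least 50 normalized counts on average. It called 65 of 100 differences of 2-fold and 98 of 100 of 4-fold, and 15 genes without a set change. A run with no set changes gave 0 calls. The simulated libraries were independent draws without a shared part for each clutch, and neither perturbation had an effect outside the set changes. The rates therefore hold for that setting and not for libraries of siblings. Libraries of the same frog or cross are siblings, and their deviations from the group means correlated in each clutch (r = 0.2498, 0.2329 and 0.3699 for frogs D, E and F, and 0.2863, 0.5351 and 0.557 for crosses 1, 2 and 9), so a fit with the clutch as a replicate block was an alternative. Others were DESeq2 1.42.0 (size factors, Wald test), the count filter before the fit or none, 12 libraries only, cMO or heterozygous embryos as control, an FDR of 1% and the omission of each clutch.

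Named genes were *t* and *t2*, the 12 largest called differences in each direction with a symbol, a mean of at least 50 normalized counts and clutch ratios that did not overlap between frogs and crosses, up to 4 called members of each list by size, and, each with a symbol and a mean of at least 50 normalized counts, the 4 largest differences among genes called in both effects with opposite signs and the 4 largest called differences among genes called in the KO but not the morphant effect. Genes outside this rule were named after their values were seen: *cav1*, *tbx6*, *msgn1*, *mesp2*, *mespa*, *cav3.2*, *lhx1*, *tk2*, *rgn* and *hebp2*. The members and lists were chosen with earlier results of these data known. Lists are described by counts and medians, with no set test. Gene-list members were matched by symbol. Some genes that meet the rule are not reported here. Figures were drawn with matplotlib 3.10.9.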

Additional observations from a re-analysis of the deposited data

Results flagged for a closer look

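The ribosomal and unaligned totals stand outside the gene counts and were higher in morphants than in uninjected embryos. The median ribosomal share of morphants at stage 34 was 0.221% of fragments, against a highest value of 0.198% in uninjected embryos. The median unaligned share of morphants was 33.78%, against a highest value of 31.44% in uninjected embryos and values of 32.41%, 34.01% and 32.39% in cMO embryos of frogs D, E and F, which overlapped with morphants. The part of either share in the results was not tested.

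Between the stages, the difference of the effects itself differed in 2 of 17987 genes past the filter by edgeR's quasi-likelihood test of the interaction. Both were named after their values were seen. By the same test, 1807 genes past the filter had an unadjusted p under 0.05. For *rgn* (Xetro.B01080), whose product regucalcin binds calcium in mammals, the stage 34 difference minus the stage 26 difference was -4.48 ± 0.77 (log2 ± SE, adjusted p = 0.0212). The difference was 3.29 at stage 26 and -1.19 at stage 34, where it was not called (adjusted p = 0.171). At stage 26 *rgn* had 56.1, 72 and 61.5 normalized counts in uninjected embryos and 157, 434 and 639 in morphants of frogs D, E and F. In crosses 1, 2 and 9 it had 108, 133 and 102 in wild-type and 51.7, 83.6 and 93 in KO embryos. For *hebp2* (Xetro.E01256), a heme-binding protein gene, the value was -3.80 (adjusted p = 0.0212), from 3.29 at stage 26 to -0.51 at stage 34, where the difference was not called (adjusted p = 0.601). It had 119, 185 and 145 normalized counts in uninjected embryos, 721, 1944 and 3223 in morphants, 218, 292 and 283 in wild-type and 223, 484 and 356 in KO embryos at stage 26. The number of such genes was 0 without frog E or F or cross 1, 28 without frog D and 18 without cross 2.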

How the results depend on the processing

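The count of genes whose effects differed (1909, of which 947 were higher and 962 lower in morphants) moved with the threshold and with the treatment of clutches. With the clutch as a replicate block, 2864 genes (1492 of them lower) were called, and with the block in the 12 libraries only 3136 (1604 higher and 1532 lower). An FDR of 1% left 673 (323 higher and 350 lower). Without single clutches the count ran from 904 to 2097, the higher genes from 466 to 1005 and the lower genes from 438 to 1092, each lowest without frog E and highest without cross 2. The KO effect (673 genes) gave 1066 with the replicate block in 12 libraries, 400 at an FDR of 1% and 375 to 727 without single clutches. The stage dependence (2 genes) gave 48 with the DESeq2 Wald test, 207 with the replicate block, 0 at an FDR of 1% and 0 to 28 without single clutches. The causes were not tested. With cMO embryos as the control, the difference turned in sign for *csf3* (-0.31) and *adsl* (0.0045), neither called, and 42 further named genes of 100 lost their call, against 15 with heterozygous embryos in place of wild-type, 12 with 12 libraries only, 4 with the Wald test, 49 at an FDR of 1% and 8 (without cross 2) to 41 (without frog E) without single clutches. The replicate block changed the call of 0 of the 100 named genes, and of 1 when fitted in 12 libraries only. Beside the 0 calls in 1 direction of the lists by edgeR, unadjusted p-values under 0.05 numbered 3 each for endothelial and pronephros genes (higher), 2 each for posterior *hox* and endodermal genes (higher) and for complement and inflammatory genes (lower), and 0 each for erythroid and eye genes (higher) and interferon genes (lower), and the DESeq2 Wald test called 1 of these, an endodermal gene. For comparison, edgeR gave 4616 such p-values in either direction over all 17987 genes past the filter.

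With 3 libraries per group and separate experiments, frogs, crosses and perturbations cannot be told apart beyond each experiment's own controls. Injection and tag enter the morphant effect alone and are not taken out by uninjected controls. Counts near 3 per library limit *t2*, *msgn1* and *krt17*.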
